A study of Mus musculus with 24 samples.

Results

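The 83 interleukin, interleukin receptor and interleukin-related genes described here are all genes of the array whose symbol starts with Il and a digit. They comprise 40 ligands, 42 receptors with their accessory chains and binding proteins, and Il4i1, an enzyme induced by interleukin-4 that breaks down aromatic amino acids. They were measured by 106 of the 55681 probes, and each gene is given by 1 probe, that with the highest mean signal over the 24 arrays. Mammary gland RNA of female mice was hybridised in 8 groups of 3 samples, named A, B and C, with each sample on its own 1-colour array. BALB/c mice were taken 2, 4 and 8 weeks after 10 cGy of whole-body X-rays (LDIR) or after sham treatment, and SPRET/EiJ mice 4 weeks after LDIR or sham treatment. All mice were 8 to 9 weeks old at exposure. BALB/c is a laboratory strain and SPRET/EiJ an inbred strain of the wild species Mus spretus. The labels do not say whether a sample was 1 mouse or a pool, so p-values measure the spread between samples. In whole glands, fewer cells of a type and less RNA per cell cannot be told apart.

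Interleukins are secreted proteins through which leukocytes, epithelium, fibroblasts and endothelium signal to one another, and most act over short distances at low amounts. Their receptors fall into families that share a signalling chain: the common gamma chain Il2rg serves interleukins 2, 4, 7, 9, 15 and 21 and signals through the kinases Jak1 and Jak3, the chain gp130 (Il6st) serves the interleukin-6 family through Stat3, and the interleukin-1 family uses Il1rap and the adaptor Myd88. Decoy receptors such as Il1r2, Il13ra2 and Il22ra2 and binding proteins such as Il18bp take up ligand without signalling or limit it.

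Values are log2 processed signals minus the 75th percentile of their own array, so 0 is the signal that 75% of probes do not exceed, and they are compared for 1 probe across arrays and never between genes. A probe is called above background where the scanner software marked it well above the array background. Of the 83 genes, 49 were above background on all 24 arrays (16 of 40 ligands, 32 of 42 receptors and Il4i1), 29 on some arrays and 5 on none (Il1f6, Il1f8, Il23a, Il31 and Il1rapl2). In at least 1 group, 25 ligands and 39 receptors were above background on all 3 arrays. The receptors detected everywhere included Il11ra1, which ranged over all arrays from 4.35 to 5.89, Il15ra, the chain that presents interleukin-15, from 3.75 to 4.89, Il6ra from 2.71 to 4.98, Il6st from 2.55 to 4.35 and Il13ra1 from -2.93 to -0.73. Among ligands, the alarmin Il33 ranged from -0.30 to 1.77, Il34, a ligand of the macrophage receptor Csf1r, from 0.64 to 2.74, and Il15 from -2.93 to -1.41. Over the 8 groups, the mean of Il33 ran from 0.66 to 1.32, that of Il15ra from 3.92 to 4.49 and that of Il13ra1 from -1.86 to -1.46.

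Before any comparison, 3 arrays stood apart: BALB/c 8 weeks sham A, BALB/c 8 weeks LDIR B and SPRET/EiJ LDIR A. The mean level of 5 T lymphocyte markers (Cd3d, Cd3e, Cd3g, Cd4 and Cd8a) was 3.28, 3.74 and 3.06 on them, against at most -0.27 on the other 21 arrays. All 5 were higher on each of these arrays than on all 21 others, and 3 of 5 white adipocyte markers were lower. No marker of luminal or basal epithelium, macrophages or neutrophils was separated in either direction. They were 1 array of a sham group and 1 array each of 2 LDIR groups, and they lay on different slides: the sham array on slide 2 and the others on slide 3. BALB/c 8 weeks sham A also had the lowest mean signal of negative control spots, at -13.8 against -4.62 to -2.09 on the other arrays.

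Interleukin receptors of lymphocytes were high on the same arrays. On all 3, 24 of the 83 genes (28.9%) were higher than on each of the other 21 arrays, namely 8 of 40 ligands, 15 of 42 receptors and Il4i1, and 1 gene (Il17rc) was lower. Among all probes 5.12% were higher and 4.24% lower by the same measure. The arrays were picked by their lymphocyte markers, so these counts describe them and carry no test.

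The common gamma chain receptors held the clearest cases, 5 of 8 members. The shared chain Il2rg read 3.04, 3.33 and 3.08 on BALB/c 8 weeks sham A, BALB/c 8 weeks LDIR B and SPRET/EiJ LDIR A, and between -3.08 and -0.85 on the other 21 arrays. Il7r, the interleukin-7 receptor on which lymphocyte survival depends, read 3.58, 3.19 and 3.22 on these arrays in the same order and between -5.37 and -1.58 elsewhere. Il21r, which receives the help of follicular T cells, read 0.44, 0.95 and 0.94 against -7.31 to -3.11. Il2ra and Il2rb, the remaining interleukin-2 receptor chains, were above all other arrays by at least 1.85 each. Il4ra, Il9r and Il15ra of the same family overlapped with the other arrays.

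**Figure D1:**
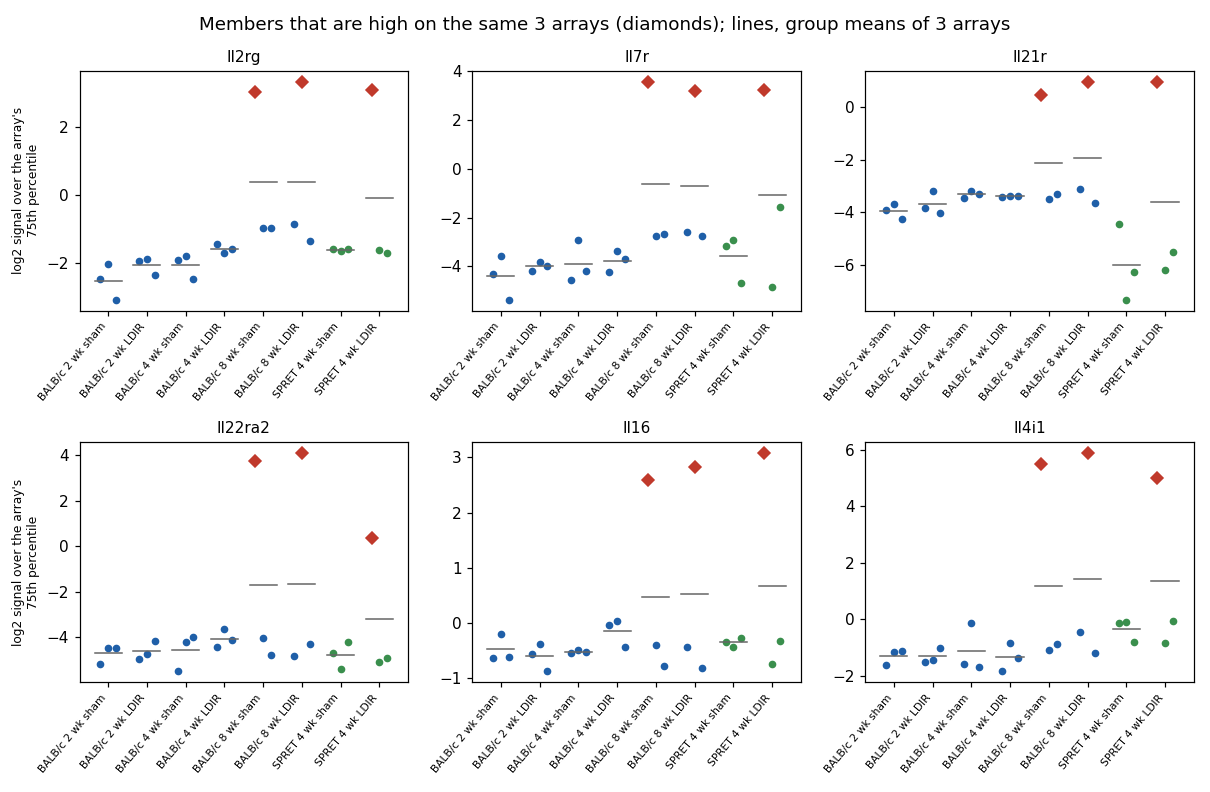
Level of 6 genes on each of 24 arrays, as log2 signal over the 75th percentile of the array (vertical axis), by group (horizontal axis). Diamonds are the 3 arrays with high lymphocyte markers, circles the other 21 and lines the means of 3 arrays; each diamond lies above every circle of its gene, for Il2rg at 3.04 to 3.33 against at most -0.85.

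The promoters of 3 of these receptors, all high on the same 3 arrays, are shown. Each is the 250 bases before the gene start, 5′ to 3′ on the strand of the gene (RefSeq, GRCm38.p6). Il2rg lies on the minus strand at chrX:101268256-101268505, Il7r on the minus strand at chr15:9529877-9530126 and Il21r on the plus strand at chr7:125603179-125603428. Capitals mark matches to CCGGAAG, a core bound by ETS factors, or to TTCNNNGAA, the spaced palindrome bound by STAT factors, searched on both strands.
Il2rg: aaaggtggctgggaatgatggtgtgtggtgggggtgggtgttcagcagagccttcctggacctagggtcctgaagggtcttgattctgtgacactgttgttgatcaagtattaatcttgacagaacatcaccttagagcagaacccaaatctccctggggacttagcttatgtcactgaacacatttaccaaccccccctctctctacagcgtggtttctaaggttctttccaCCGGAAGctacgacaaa
Il7r: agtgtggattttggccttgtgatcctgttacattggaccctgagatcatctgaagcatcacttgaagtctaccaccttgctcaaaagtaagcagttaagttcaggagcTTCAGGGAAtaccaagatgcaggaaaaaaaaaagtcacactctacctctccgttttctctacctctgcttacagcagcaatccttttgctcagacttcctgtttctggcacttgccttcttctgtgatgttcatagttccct
Il21r: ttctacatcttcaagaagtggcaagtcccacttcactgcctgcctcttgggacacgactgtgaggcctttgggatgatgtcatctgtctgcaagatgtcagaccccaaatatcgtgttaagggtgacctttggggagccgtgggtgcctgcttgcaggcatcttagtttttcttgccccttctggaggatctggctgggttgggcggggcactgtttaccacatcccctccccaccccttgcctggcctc
The Il2rg window held 1 ETS match, the Il7r window 1 STAT match, and the Il21r window neither. Of 79 members with a promoter in the table, 5 held the ETS letters and 8 the STAT letters, among them Il15ra with the first and Il18r1 and Il1r2 with the second. Over 32851 promoter windows of this length the shares were 6.91% and 7.02%. A match is a run of letters and not a binding site, and no binding was measured.

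Outside that family, Il22ra2, the soluble decoy for interleukin-22, had the widest span: it read 3.74 and 4.10 on the 2 BALB/c arrays, 0.35 on the SPRET/EiJ array and at most -3.65 elsewhere. Against the other 2 arrays of its own group, BALB/c 8 weeks sham A was higher by 8.15. Il4i1 read 5.50 and 5.88 on the BALB/c arrays, and on all 3 it was at least 5.07 above the highest other array. Il27ra, the interleukin-27 receptor of T cells, read 1.06, 1.61 and 0.96 against at most -2.46, and Il10ra, the ligand-binding interleukin-10 chain of leukocytes, 2.11, 2.08 and 2.25 against at most 0.22. Il18r1, Il18rap, Il18bp, Il12rb1, Il23r, Il17ra and Il6ra were also above all other arrays, by 0.33 to 2.22.

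Among the ligands, Il16, which is stored in lymphocytes and attracts cells that carry Cd4, read 2.59, 2.83 and 3.08 against at most 0.03. Il7, made by stroma, read -1.73, -1.83 and -2.93 against at most -3.56. Il21, a product of helper T cells, was above background on these 3 arrays and on no other, at -3.82, -4.07 and -4.22. Il2, Il12a, Il12b, Il1a and Il18 completed the 8 ligands, and the gap of Il18 to the highest other array was 0.12. Of the 5 interleukin-10 family ligands and the 6 interleukin-17 family ligands, 0 were separated. In contrast, Il17rc, an interleukin-17 receptor chain of epithelium and other non-blood cells, was lower at 2.49, 2.25 and 1.74 against at least 2.87.

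**Figure D2:**
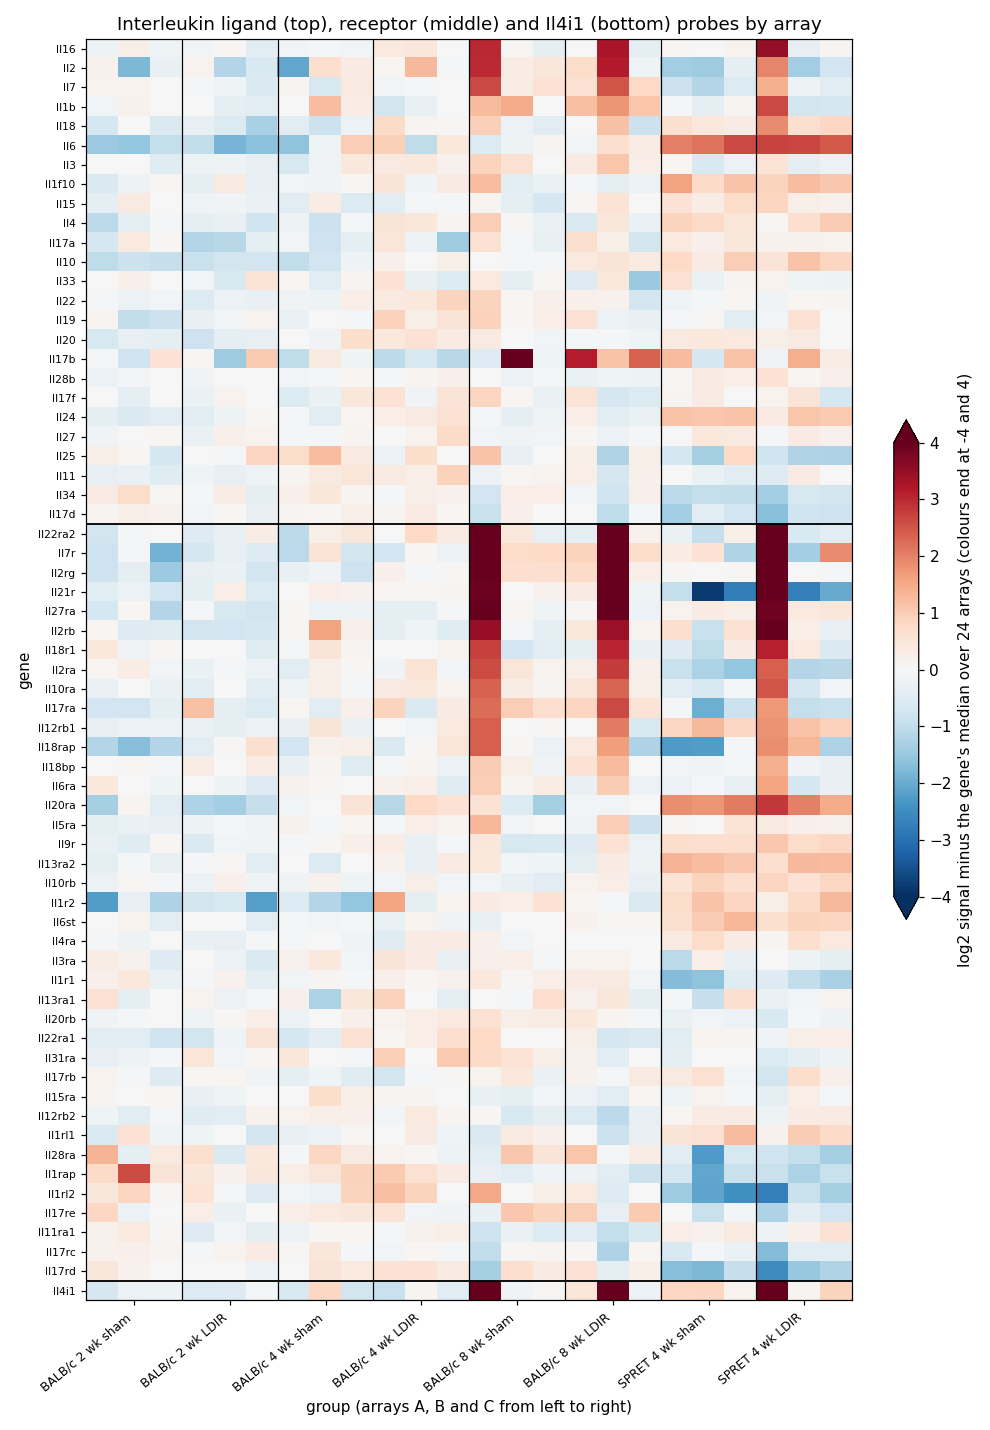
Each row is 1 of the 65 genes above background on all 3 arrays of at least 1 group, each column 1 of 24 arrays in groups of 3, and the colour the log2 signal minus the median of the gene over the 24 arrays (colours end at -4 and 4). BALB/c 8 weeks sham A, BALB/c 8 weeks LDIR B and SPRET/EiJ LDIR A show as dark red columns, most clearly in the receptors, and the 6 SPRET/EiJ columns differ in Il6, Il20ra and Il1rl2.

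Genes of the signalling machinery were counted from a list of 27 kinases, Stats, adaptors, feedback inhibitors and shared chains. On the same 3 arrays 11 of 27 were above all other arrays and 0 below, beside 5.12% and 4.24% of all probes. Stat4, the transducer of interleukin-12 in T cells, read 1.54, 1.65 and 2.22 against at most -1.82, Jak3, the kinase bound to Il2rg, 1.23, 1.44 and 0.56 against at most 0.44, and Socs1, a feedback inhibitor, 1.51, 1.65 and 1.71 against at most -0.35. The mouse mammary fat pad contains a lymph node, and whether node tissue was part of these 3 samples was not tested.

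These arrays entered 3 of the comparisons. At 8 weeks in BALB/c there was 1 in each arm, and the errors of the differences between LDIR and sham were larger with these arrays. For Il2rg the difference was 0.00 with a standard error of 1.64 with both arrays, and -0.14 with a standard error of 0.24 without them. Over the 78 members above background on some array, the median standard error of the 8-week difference was 0.46 with both arrays and 0.25 without. The median size of the difference was 0.205 in both cases. With both arrays the differences ran from -1.84 to 1.76, and 23 of the 78 had the opposite sign without them. In SPRET/EiJ the array lay in the LDIR group alone. There, Il7r was higher after LDIR by 2.52 (standard error 1.83) with it and by 0.38 (standard error 1.06) without it, Il21r by 2.41 and 0.15, and Il2rg by 1.52 and -0.05. None of these differences passed the test in either case. Of the 78 members, 30 had the opposite sign once that array was left out.

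The second question of the design was how the strains differ. In sham mice at 4 weeks, 2 members were higher in BALB/c than in SPRET/EiJ by the thresholds used for strains (limma p under 0.001 and over 1.5-fold), Il17rd and Il34, and 4 were lower, Il1r2, Il13ra2, Il20ra and Il24. The same thresholds called 5.36% of all probes higher and 3.53% lower, against 2 and 4 of 83 members. At a limma adjusted p under 0.05, 7 members were higher and 13 lower, beside 10.3% and 8.59% of all probes.

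Il17rd, a receptor-like protein also known as Sef that dampens fibroblast growth factor signalling, read -0.50, 0.03 and -0.10 in the BALB/c sham samples and -2.18, -2.29 and -1.40 in the SPRET/EiJ sham samples. The strain difference was 1.76 (standard error 0.29, limma adjusted p = 0.00944). Il34 read 2.20, 2.46 and 2.10 against 0.92, 1.05 and 1.03, and differed by 1.25 (standard error 0.17, limma adjusted p = 0.00455). Neither gene overlapped between the strains in sham mice.

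The genes lower in BALB/c included both decoy receptors for interleukins 1 and 13. Il1r2, which binds interleukin-1 without signalling, read -0.99, -1.59 and -1.97 in BALB/c and 0.30, 0.71 and 0.44 in SPRET/EiJ samples, lower in BALB/c with a log2 difference of -2.0 (standard error 0.28, limma adjusted p = 0.00531). Il13ra2, the decoy for interleukin-13, read -1.41, -1.94 and -1.36 against -0.04, -0.14 and -0.31, a difference of -1.40 (standard error 0.21, limma adjusted p = 0.00692). Both were separated between the strains in sham samples. In LDIR samples Il1r2 differed by -0.32 (standard error 0.54, limma adjusted p = 0.746) and Il13ra2 by -1.03 (standard error 0.29, limma adjusted p = 0.075). The Il1r2 call was lost against BALB/c sham at 2 or 8 weeks. Those of Il13ra2, Il17rd, Il34 and Il20ra were lost against BALB/c sham at 8 weeks. The Il20ra call was also lost with normexp background correction and the Il17rd call with quantile normalization. Under the alternatives run, the Il1r2 difference lay between -2.85 and -0.53. Il24, an interleukin-10 family ligand, read -2.81, -3.18 and -2.66 against -1.59, -1.68 and -1.60, a difference of -1.26, but the other Il24 probe differed by -0.75 (limma adjusted p = 0.163). Il20ra, a receptor chain for interleukins 19, 20 and 24, was above background in 0 of 3 BALB/c and 3 of 3 SPRET/EiJ sham samples and at least 2.11-fold lower in BALB/c, a bound taken from the lowest signal above background on each array (limma adjusted p = 0.00368). Leaving out 1 of the 6 arrays kept 4 of these 6 calls without BALB/c sham C, 2 without BALB/c sham B and 1 without BALB/c sham A or any of the SPRET/EiJ sham arrays. A fit of all 24 arrays with slide as a term called 0 members and 1486 probes, and in it the differences of Il34 and Il17rd were 0.90 and 1.17. The SPRET/EiJ arrays all lay on slide 3 and the 4-week BALB/c arrays on slides 1 and 2. For slide 3 that term therefore rests on the BALB/c 8 weeks LDIR samples, of which A lay on slide 2 and B and C on slide 3. Of these, LDIR B is 1 of the 3 arrays with high lymphocyte markers.

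Il6 and the shared chain Il6st were both lower in BALB/c. Il6 was above background in 1 of 3 BALB/c sham samples, at -7.47, -6.04 and -4.90, and in all SPRET/EiJ sham samples, at -3.86, -3.71 and -3.25, a difference of -2.53 (standard error 0.63, limma adjusted p = 0.0366). The size of that difference rests largely on BALB/c signals near background. Il6st read 2.98, 2.90 and 2.95 against 3.65, 4.02 and 4.35, a difference of -1.06 (standard error 0.22, limma adjusted p = 0.0196). Both passed the adjusted threshold and missed the stricter unadjusted one. Il6ra, the chain that binds interleukin-6, read 3.44 to 3.57 in BALB/c and 3.12 to 3.37 in SPRET/EiJ sham samples, a difference of 0.27 that did not pass (standard error 0.16, limma adjusted p = 0.304). Stat3, the transducer of gp130, went the other way and was 2.86 higher in BALB/c (standard error 0.24, limma adjusted p = 0.000756). Stat3 is given by 1 probe, and whether that probe matches the SPRET/EiJ sequence was not tested.

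**Figure D3:**
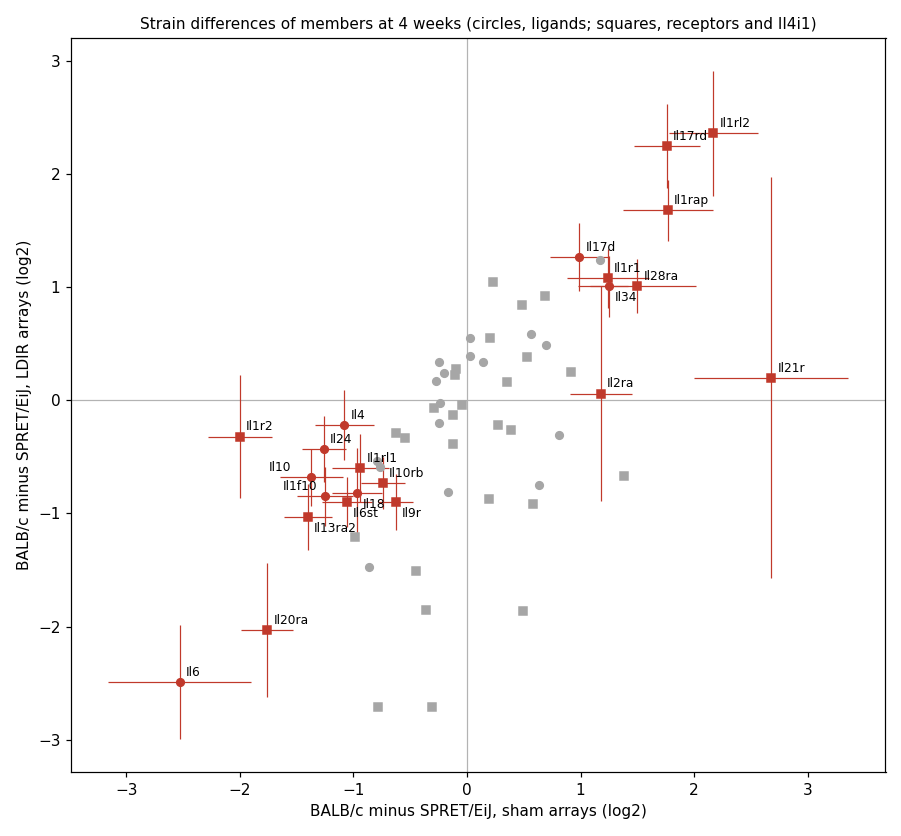
Strain difference at 4 weeks of 65 genes in sham samples (horizontal axis) and LDIR samples (vertical axis), both as BALB/c minus SPRET/EiJ in log2; circles are ligands and squares receptors and Il4i1. Red points with standard errors had a limma adjusted p under 0.05 in at least 1 of the comparisons and grey points in neither; Il6 and Il20ra lie at the lower left, Il17rd and Il1rap at the upper right, and Il21r at 2.68 in sham but 0.20 in LDIR samples, where SPRET/EiJ LDIR A is included.

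The LDIR samples gave the strain comparison again on arrays that the sham comparison did not use. By the same thresholds Il17rd (2.25, standard error 0.37, limma adjusted p = 0.013) and Il1rap (1.68, standard error 0.27, limma adjusted p = 0.0118) were higher in BALB/c and the dim Il1f9 was lower, beside 3.78% of probes called higher and 1.89% lower. At an adjusted p under 0.05, 6 members were higher and 2 lower, beside 6.99% and 4.11% of probes. Without SPRET/EiJ LDIR A these counts were 10 and 7, and without any 1 BALB/c LDIR array the total was 1. The unadjusted strain thresholds called 0 members without any 1 BALB/c LDIR array and 1 without SPRET/EiJ LDIR B or C. How the counts of all probes moved beside these is not shown here. All 20 members past the adjusted threshold in sham samples had the same sign in LDIR samples, with and without SPRET/EiJ LDIR A. Of all probes past it, 97.2% did so with that array.

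Il6 differed by -2.49 in the LDIR samples (limma adjusted p = 0.0259), where it was above background in 1 of 3 BALB/c and 3 of 3 SPRET/EiJ samples and read -4.91, -6.90 and -5.45 in BALB/c and -3.17, -3.19 and -3.43 in SPRET/EiJ. Here too the size rests largely on BALB/c signals near background. Il21r was above background in 1 of 3 SPRET/EiJ samples in each group, so its differences rest largely on signals near background. It was 2.68 higher in BALB/c sham than in SPRET/EiJ sham samples (limma adjusted p = 0.0403), 0.20 higher in LDIR samples with SPRET/EiJ LDIR A (standard error 1.77) and higher without it (limma adjusted p = 0.00493). In that case the BALB/c samples read -3.41, -3.39 and -3.38 and the SPRET/EiJ samples -6.20 and -5.51, neither of them above background, so no size is given. Il1r1, the signalling interleukin-1 receptor, was higher in BALB/c LDIR samples by 1.08 with that array (limma adjusted p = 0.0454) and by 1.29 without it (limma adjusted p = 0.0108). Without the array the thresholds called Il17rd, Il1r1 and Il21r higher and Il1f9 lower, and 4.21% and 3.68% of probes. Il1rap then missed the unadjusted threshold, and Il1f9 was above background on none of the arrays left.

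Across all 18 BALB/c and 6 SPRET/EiJ arrays, 8 members did not overlap between strains whatever the time and exposure (9.64%, beside 9.22% of all probes). Il6, Il6st, Il20ra, Il13ra2, Il10rb and Il9r were lower on every BALB/c array, and Il1r1 and Il1rl2 higher. Il6 reached at most -4.90 on a BALB/c array and at least -3.86 on a SPRET/EiJ array, and Il6st at most 3.19 and at least 3.65. Il10rb, the second chain shared by the interleukin-10 and interferon lambda receptors, reached at most 1.45 and at least 1.74.

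The cell composition markers also differed between strains. All 5 luminal epithelium markers were higher in BALB/c, with medians of 1.80 in sham and 2.01 in LDIR samples, and 0 of them passed the strain thresholds. The mean luminal level ranged from 3.54 to 4.64 in BALB/c sham and from 0.84 to 3.36 in SPRET/EiJ sham samples at 4 weeks. Neutrophil markers were lower in BALB/c sham samples in 4 of 4 cases (median -1.18), with 0 past the thresholds. Other markers passed in sham samples: Krt17 of the basal epithelium was higher by 3.11, with 4 of 4 basal markers higher (median 0.68). Plin1 of white adipocytes was higher by 3.84, but the median of the 5 adipocyte markers was 0.05. Of these, Adipoq differed by 0.38, Fabp4 by 0.05, Cfd by 0.04 and Lep by -2.05, none past the thresholds. Their part in the interleukin differences was not tested.

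Probes of 1 gene could disagree between strains, as for Il4ra and Il1rl1, which were chosen after their values were seen. For comparison of their positions, the first 30 of the 60 bases of each probe are given 5′ to 3′, as the array files list them, with probe 1 the brightest. The files place them by the mm9 build.
Il4ra probe 1: atcccgaggaacagtgccagcactgtgtgt
Il4ra probe 2: acctgttgggaattccaaccctcaccagtc
Il1rl1 probe 1: gccattgactccttgtgtgttttcttcatg
Il1rl1 probe 2: ccttacccaaattgccattacagtcgagca
Il1rl1 probe 3: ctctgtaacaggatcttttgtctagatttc
The Il4ra probes lie at chr7:132712550-132712609 and chr7:132722922-132722981, and the Il1rl1 probes at chr1:40522187-40522246, chr1:40520014-40520073 and chr1:40504769-40504828, all on the plus strand. Il4ra probe 1 holds 55% G or C and probe 2 38.3%, and each Il1rl1 probe holds 35%.

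Il4ra, the chain that binds interleukins 4 and 13, differed little by probe 1, at -1.77, -1.68 and -1.82 in BALB/c sham and -1.32, -0.95 and -1.36 in SPRET/EiJ sham samples (difference -0.55, limma adjusted p = 0.0877). By probe 2 the same samples read -3.62, -2.95 and -3.10 against 1.07, 0.50 and 0.09, a difference of -3.78 (standard error 0.31, limma adjusted p = 0.000752). In LDIR samples probe 2 differed by -3.04 (limma adjusted p = 0.00883) and probe 1 by -0.33. On all 18 BALB/c arrays probe 2 stayed between -4.03 and -2.85.

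Il1rl1, the receptor of Il33 that also exists as a soluble form, gave -0.94 by probe 1, -3.10 by probe 2 and -1.22 by probe 3 in sham samples. In LDIR samples the differences were -0.60, -3.52 and -0.66, and probe 2 passed the strain thresholds (limma adjusted p = 0.00372). Probe 2 read -1.02, -2.28 and -0.30 in SPRET/EiJ sham samples and -3.81, -3.80 and -5.31 in BALB/c sham samples. Il1rap likewise rested on its brightest probe: the other detected Il1rap probe differed by -0.30 in sham and 0.38 in LDIR samples, and the second Il17d probe by -0.19 where the first differed by 0.99. Whether probes match the SPRET/EiJ sequence or report different transcripts was not tested.

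**Figure D4:**
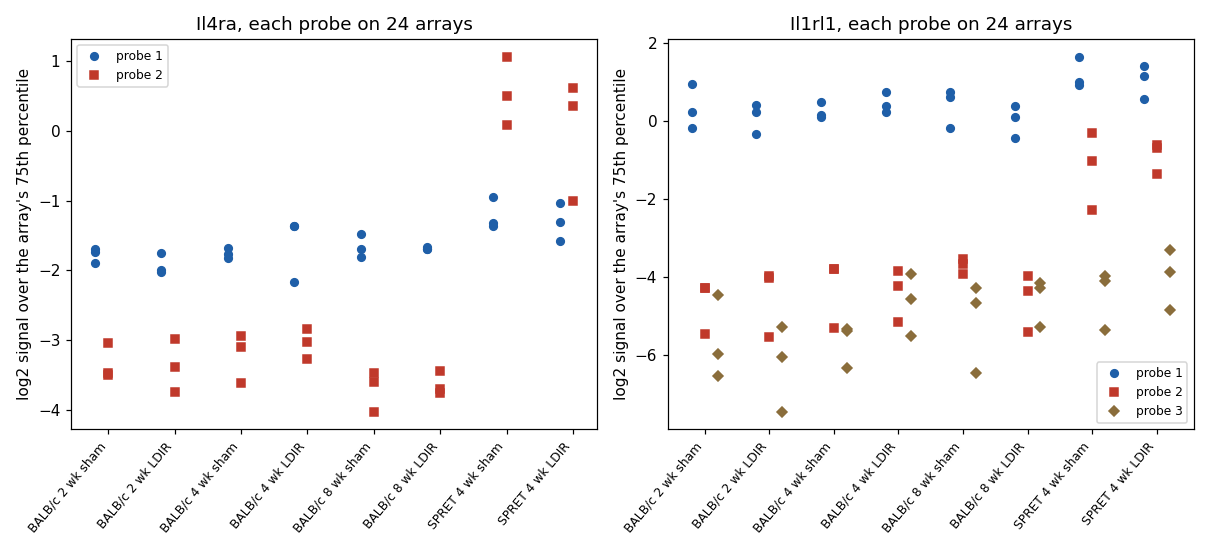
Level of each probe of Il4ra (left) and Il1rl1 (right) on the 24 arrays, as log2 signal over the 75th percentile of the array, by group; each symbol is 1 array and each colour 1 probe, to be compared across groups within a colour. Probe 2 of Il4ra lies between -4.03 and -2.85 on all BALB/c arrays and between -1.01 and 1.07 on SPRET/EiJ arrays, while probe 1 moves little.

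The third question was what 10 cGy changed. No member had a limma adjusted p under 0.05 in any of the 4 comparisons of LDIR with sham, nor had any probe of the array, and the smallest adjusted p among members was 0.748. At an unadjusted p under 0.05, 2, 7, 1 and 2 of 83 members passed at 2, 4 and 8 weeks of BALB/c and in SPRET/EiJ mice, respectively, beside 5.03%, 6.18%, 1.97% and 2.22% of all probes. The study's thresholds of an unadjusted p under 0.05 and over 1.5-fold are used below.

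At 4 weeks in BALB/c, 6 members rose past these thresholds and 0 fell, beside 3.39% of probes called higher and 1.44% lower. They were 5 of 40 ligands (Il4, Il10, Il18, Il19 and Il22) and 1 of 42 receptors (Il1r2). Il1r2 read -0.99, -1.59 and -1.97 in sham and 1.15, -0.79 and -0.29 in LDIR samples, a rise of 1.54 (standard error 0.53, limma adjusted p = 0.775). Il18, a ligand that drives interferon gamma in lymphocytes, read -0.32, -0.73 and -0.11 in sham and 0.87, 0.22 and 0.16 in LDIR samples, a rise of 0.80 (standard error 0.27, limma adjusted p = 0.775). In neither gene did the groups overlap. The strain difference of Il1r2 in sham mice used the same BALB/c sham samples.

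The other 4 ligands rose by less than 1 on the log2 scale. Il10, an inhibitor of macrophage activation, read -5.64, -5.42 and -4.85 in sham and -4.44, -4.62 and -4.40 in LDIR samples, and was above background in 1 and 3 of 3 samples. Il4, the main signal for alternative macrophage activation, read -4.22, -4.88 and -4.08 against -3.49, -3.58 and -3.90. Il19 rose by 0.68, while its second probe, not above background in these samples, differed by -0.56. Il22, which acts on epithelium, rose by 0.59. The second probe of Il24 also passed, with a rise of 1.09, while the first rose by 0.53 and did not. Il4, Il10, Il19 and Il22 did not pass with normexp background correction. Of the ligands detected in this comparison 17 of 22 were higher after LDIR, with a median of 0.28, and of the receptors 25 of 37, with a median of 0.12. Of all detected probes 20845 of 38132 were higher, with a median of 0.03. These counts of direction carry no test.

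Slide 1 held sham A and B of this time, and slide 2 held sham C and all LDIR samples. Within slide 2, the 3 LDIR samples were above sham C by 1.99 in Il1r2, 0.64 in Il19, 0.52 in Il18, 0.42 in Il4, 0.36 in Il10 and 0.32 in Il22. With slide as a term in the 6-array fit, Il1r2 was the only gene of the 6 that still passed. It did not pass without sham B, without sham C or by the methods' Student test. Without sham B 3 members passed, and without sham C 9, and how the counts of all probes moved in these fits is not shown here. Macrophage markers were higher in 3 of 5 cases past the thresholds (Cd68 by 0.81, Mrc1 by 0.77 and Emr1 by 0.72), while Csf1r was at 0.72 and Cd14 at -0.50 without passing, and 2 of 4 basal epithelium markers were lower (Krt14 by -0.93 and Krt5 by -0.73). Of 4 neutrophil markers Ly6g was higher by 1.07, and S100a8 (0.10), S100a9 (-0.86) and Retnlg (0.29) did not pass. All 4 skeletal muscle markers were lower without passing (median -2.26). The mean macrophage marker level ranged from 2.27 to 2.69 in sham and 2.79 to 3.20 in LDIR samples, and its part in these changes was not tested.

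**Figure D5:**
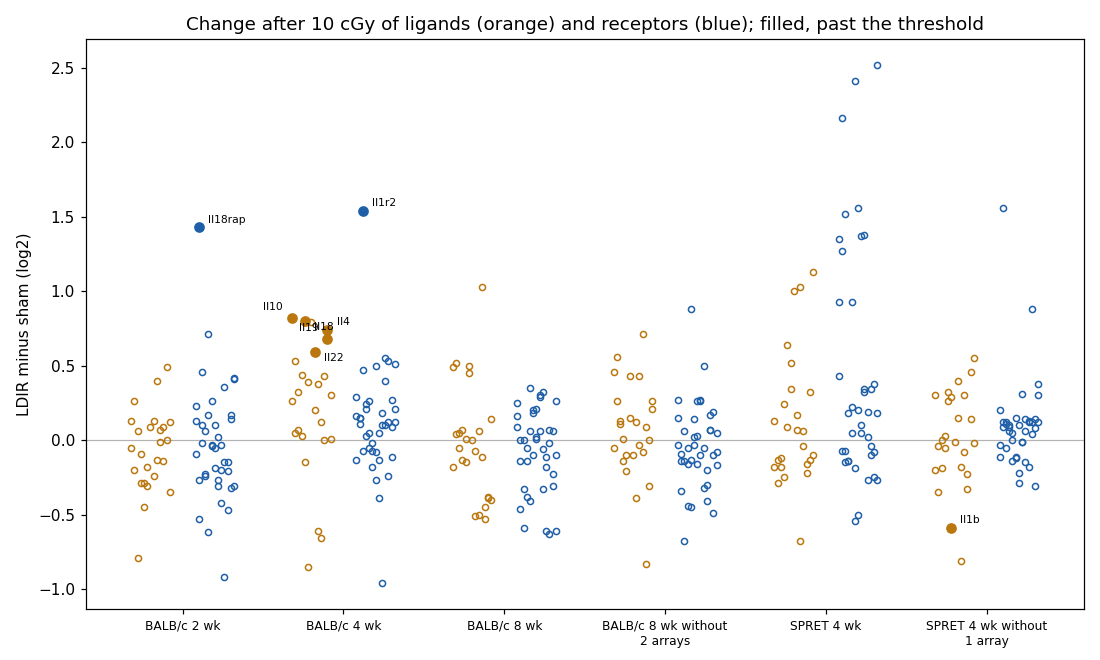
Difference between LDIR and sham in log2 (vertical axis) of 25 ligands (orange) and 39 receptors (blue) in the 4 comparisons, and at 8 weeks and in SPRET/EiJ also without the arrays with high lymphocyte markers (horizontal axis). Filled points passed the unadjusted thresholds; the upper receptors of SPRET/EiJ, up to 2.52, fall back once 1 array is left out.

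The remaining times gave few calls. At 2 weeks 1 member was called, Il18rap, higher and above background in 2 of 3 LDIR and 0 of 3 sham samples, beside 2.08% of probes higher and 0.968% lower. At 8 weeks Il23a was called lower although it was not above background on any array, beside 0.169% higher and 1.75% lower. Without BALB/c 8 weeks sham A and LDIR B, Il23a and Il1rn were called lower, beside 2.27% of probes higher and 2.09% lower. With all arrays, 2 of 4 neutrophil markers were called lower at 8 weeks. Leaving out 1 array at 8 weeks gave 1 to 4 calls, with 4 without sham A. In SPRET/EiJ, Il1f9 and Il1rn were called higher, above background in 1 and 2 of 3 LDIR samples and in 0 sham samples, beside 1.56% higher and 0.654% lower. Without SPRET/EiJ LDIR A these 2 were still called and Il1b was called lower (difference -0.59, standard error 0.23), beside 3.02% and 0.751%. Il1f9 was then above background on none of the arrays left, so its call rests on background signal. Without SPRET/EiJ LDIR B 8 members were called. Where no share of probes stands beside a count, how all probes moved is not shown here.

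Il1b, the inflammatory ligand released through the inflammasome, read -3.59, -3.92 and -3.44 in SPRET/EiJ sham and -0.90, -4.28 and -4.21 in SPRET/EiJ LDIR samples. The high value was that of the array with high lymphocyte markers, SPRET/EiJ LDIR A. This array also had the highest mean neutrophil marker level, at 0.51 against at most -0.49 on the others. On BALB/c 8 weeks sham A and LDIR B, Il1b read -2.26 and -1.77, against at most -2.06 on the arrays without high lymphocyte markers. Il33 differed from sham by -0.14, 0.00, -0.53 and -0.22 in the 4 comparisons and Il15 by -0.20, 0.05, 0.52 and -0.13, none past the thresholds.

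The response to LDIR was compared between strains at 4 weeks and between times in BALB/c, by interaction terms. In each of the 4 terms, 0 members had a limma adjusted p under 0.05, and 5, 5, 5 and 2 had an unadjusted p under 0.05 for BALB/c minus SPRET/EiJ, 4 minus 2, 8 minus 4 and 8 minus 2 weeks, beside 3.6%, 3.98%, 4.36% and 3.06% of all probes. The rise of Il1r2 at 4 weeks is therefore not shown to differ from its change at other times.

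Of the 27 signalling genes, Stat3 and the receptor chain Csf2rb were higher in BALB/c sham samples by the strain thresholds and Crlf2, the chain of the Tslp receptor that pairs with Il7r, was lower, beside 5.36% of all probes called higher and 3.53% lower. In LDIR samples Stat3 was higher by 2.31 and Crlf2 lower by -1.45, beside 3.78% and 1.89% of probes. After LDIR, 0 of 27 were called at 2 weeks, at 8 weeks and in SPRET/EiJ. At 4 weeks the feedback inhibitors Cish and Socs3 were lower, beside 1.44% of probes called lower. Cish differed by -1.11 (standard error 0.35, limma adjusted p = 0.775) and Socs3 by -0.64 (standard error 0.24, limma adjusted p = 0.775). Slide partly coincided with exposure at this time, and its part in the changes of Cish and Socs3 was not tested.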

How the data were processed

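Mammary RNA was hybridised to 24 1-colour Agilent arrays, and the deposited scanner files (Feature Extraction 10.10.1.1) give the authors' background-corrected processed signal intensity for 62976 spots, placed by the mm9 build. Outlier spots (3777 over all arrays) were left out, spots of a probe averaged and log2 intensities centred on the 75th percentile of each array, as the authors did in GeneSpring. Their deposited log2 values are also centred on the median of each probe. Once the values used here were centred in that way, 99.812% of the deposited values lay within 0.01 of them. The column medians of the deposited values ran from -0.22 to 0.33. On the arrays 57.1% to 72.6% of probes were above background, the lowest share being that of SPRET/EiJ LDIR C. Their number limits the precision.

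Each comparison was fitted in limma 3.58.1 (R 4.3.3) on its own arrays, with Benjamini-Hochberg adjustment over all probes, and tested on simulated data. Thresholds were those of the study, an unadjusted p under 0.001 for strains or 0.05 for LDIR with over 1.5-fold. Named genes were members past the thresholds and above background in the brighter group, and 22 chosen ligands and receptors where detected. Members, marker and signalling lists were chosen with earlier results of these data known, and the result of the B lymphocyte list is not reported here.

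Replicate letters were checked for pairing by the correlation of same-letter deviations from group means. No comparison had all letters over 0.1 across all probes, but over probes above background on every array the 2-week letters did (0.167, 0.481 and 0.171), where the replicate block called 2 members and not 1. Alternatives were normexp correction, quantile normalization, the authors' log2 values, other filters and fits, slide terms, the methods' Student test and leaving out each array; leaving out the arrays with high lymphocyte markers was chosen after seeing the data. Promoter sequences came from RefSeq (GRCm38.p6).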

Additional observations from a re-analysis of the deposited data

How the results depend on the processing

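Counts of members past the thresholds moved by over 1.5 times as follows. In sham samples 6 were called between strains, against 11 with 24 arrays in one fit, 0 with slide as a term in it, 1 with the replicate block, 2 with the methods' Student test, 11 against BALB/c sham at 2 weeks and 2 against BALB/c sham at 8 weeks. At an adjusted p, 20 became 1, 7 and 7 with the slide term, the methods' test and the 8-week sham samples. In LDIR samples 3 became 5 with normexp, 9 with 24 arrays and 0 with the slide term, the replicate block or the methods' test. At an adjusted p, 8 became 15 with quantile normalization, 16 with detected probes alone or with 24 arrays, 0 with the slide term, 4 with the replicate block and 2 with the methods' test.

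After LDIR, the count at 2 weeks was 1, against 0 with normexp or detected probes alone and 2 with quantile normalization or the replicate block. At 4 weeks 6 became 3 with normexp and 2 with the slide term or the methods' test. At 8 weeks 1 became 0 with normexp, 2 with quantile normalization, with the mean of all probes or without both arrays with high lymphocyte markers, and 3 with 24 arrays with or without the slide term. In SPRET/EiJ 2 became 0 with normexp or detected probes alone and 4 with 24 arrays with or without the slide term.

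Leaving out 1 array gave 1 to 5 and, at an adjusted p, 9 to 13 members in the sham strain comparison, and 0 to 4 and 1 to 17 in the LDIR one. It gave 2 to 4 at 2 weeks, 3 to 9 at 4 weeks, 1 to 4 at 8 weeks and 2 to 8 in SPRET/EiJ. The interaction of 8 minus 4 weeks gave 0 to 1, with Il9 past the threshold without 8 weeks sham C, and the other interactions gave 0 under every alternative run. None of the 14 named differences changed sign. The cause of these shifts was not tested, and how the counts of all probes moved in these fits is mostly not shown here. The letters share only a number, and beside the strain counts and the 2-week count given above the replicate block moved no count by over 1.5 times. Precision is limited by 3 arrays a group and, for 34 genes, by arrays on which the probe was not above background.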

Other observations

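The 4 BALB/c arrays of 8 weeks that did not have high lymphocyte markers lay apart from the 12 BALB/c arrays of 2 and 4 weeks for 7 of 83 genes (8.43%), beside 17.1% of all probes. Of the 7, Il1f6, Il1f8 and Il31 were above background on no array. Il2rg read -1.35 to -0.85 on them and -3.08 to -1.44 earlier, and Il7r -2.76 to -2.57 against -5.37 to -2.93. Il17re, the interleukin-17C receptor chain of epithelium, read 1.80 to 2.00 against 0.65 to 1.76. Il1rap went the other way, at -4.33 to -3.67 against -3.30 to -0.88. Time after exposure, age and slide partly coincide in these arrays and cannot be told apart.

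Il17b, an interleukin-17 family ligand, read 1.82 on 8 weeks sham B and 0.70, -1.27 and -0.07 on the 8 weeks LDIR arrays. The other 8 weeks sham arrays read -2.94 and -2.61. These values were noted after they were seen and carry no test.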
